A study of Homo sapiens with 12 samples.

Results

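The genes described here are the ligands and receptors of the 4 classical axon guidance systems: semaphorins with plexins and neuropilins, ephrins with Eph receptors, netrins with DCC and UNC5 receptors, and slits with Robo receptors. They were taken from the series' gene table by symbol, which gave 71 of its 28813 rows, 37 ligands and 34 receptors. The symbol rule itself uses no measured value, but the set was proposed with earlier results of these data known. The semaphorin system held 20 ligands and 11 receptors, the ephrin system 8 and 14, the netrin system 6 and 5, and the slit system 3 and 4.

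RNA came from MKL-1, a line of Merkel cell carcinoma, the neuroendocrine skin cancer that often carries Merkel cell polyomavirus, as MKL-1 does. The cells received 3 µM EPZ011989, an inhibitor of the methyltransferase EZH2, in 1% ethanol, or 1% ethanol alone as vehicle. They were harvested after 6 or 12 days, with the medium refreshed every 3 days. Each of the 4 groups had 3 libraries of polyadenylated RNA. All groups are of this 1 line, and no other allele, agent or host is involved. Nothing in the labels says that the 3 libraries of a group came from separate cultures, so p-values here measure library-to-library spread alone, possibly of technical origin.

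Guidance cues steer growing axons and migrating cells by attracting or repelling them. Semaphorins signal through plexins, with neuropilins as the ligand-binding partners of the secreted class 3 semaphorins. Ephrins are tethered to the membrane and bind Eph receptor tyrosine kinases on a neighbouring cell. Netrin-1 attracts through DCC and repels through UNC5 receptors, and slits repel through Robo receptors. EZH2 is the enzyme of Polycomb repressive complex 2, which places a repressive methyl mark on histone H3 at many developmental genes.

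The libraries held 15994997 to 20866370 estimated reads each, and a count of 3 reads was worth 0.148 to 0.194 CPM. CPM scale each gene's reads to the size of the library after TMM scaling and do not correct for gene length, and all log2 fold changes (± SE) and adjusted p-values come from 1 edgeR quasi-likelihood fit of the 15024 genes that passed the filter on low counts. EZH2 itself stood at 157 ± 2.36 CPM in vehicle and 139 ± 2.84 CPM with the inhibitor at day 6, and at 174 ± 9.68 and 59.95 ± 2.44 CPM at day 12 (SD, n = 3). The inhibitor acts on the enzyme, so this transcript does not check the treatment labels. All 12 markers chosen for the Merkel cell label were expressed, with summed levels of 3592 to 4266 CPM over the libraries. Markers of other cell types were low: the summed leukocyte markers reached at most 2.64 CPM, the endothelial markers 2.61 CPM, the keratinocyte markers 11.8 CPM and the fibroblast markers 28.7 CPM. PTPRC, MS4A1, KDR, KRT14 and TP63 had no read in the treated libraries of day 12. Called higher at day 12, at an edgeR adjusted p below 0.05, were 2 of 3 tested fibroblast and 2 of 2 tested endothelial markers. Over all tested genes 33.7% were. Of the leukocyte and keratinocyte markers 1 each was tested, and 0 were called. The endothelial sum was 0.322 to 0.729 CPM in vehicle and 1.79 to 2.61 CPM with the inhibitor at day 12, and the fibroblast sum 9.66 to 14.5 and 18.1 to 20.9 CPM. Their part in the results was not tested. In bulk RNA, fewer expressing cells and less RNA per cell cannot be told apart. On the principal components of all tested genes, vehicle day 12 replicate 1 lay apart from its group, at -51.4 on the third component against -14.0 and 7.0. Without it, 42 members were called higher and 11 lower at day 12, beside 41 and 11 with it.

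The stretch of DNA just before the transcription start is shown for 5 members that the results turn on: UNC5A, SEMA5A, EPHA8 and EPHA2, which rose by day 12, and DCC, which fell. The sequences are the RefSeq entries of build GRCh38.p14 upstream of the first listed start, cut where the GENCODE v29 gene begins, and are written 5′ to 3′ on the gene's strand. Capitals mark the GC box, GGGCGG or its reverse complement CCGCCC, the letters bound by SP-family factors.
UNC5A, chr5:176810309-176810476, plus strand: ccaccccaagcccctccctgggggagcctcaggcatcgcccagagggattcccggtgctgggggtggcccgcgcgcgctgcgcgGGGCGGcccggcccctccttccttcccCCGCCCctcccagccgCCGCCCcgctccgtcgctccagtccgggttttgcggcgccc
SEMA5A, chr5:9546076-9546325, minus strand: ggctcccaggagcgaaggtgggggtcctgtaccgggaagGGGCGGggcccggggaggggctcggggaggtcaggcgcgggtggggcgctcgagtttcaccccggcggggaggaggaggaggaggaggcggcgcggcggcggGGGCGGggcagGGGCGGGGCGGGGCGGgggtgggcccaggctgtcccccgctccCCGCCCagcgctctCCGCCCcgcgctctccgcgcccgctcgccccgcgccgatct
EPHA8, chr1:22563239-22563488, plus strand: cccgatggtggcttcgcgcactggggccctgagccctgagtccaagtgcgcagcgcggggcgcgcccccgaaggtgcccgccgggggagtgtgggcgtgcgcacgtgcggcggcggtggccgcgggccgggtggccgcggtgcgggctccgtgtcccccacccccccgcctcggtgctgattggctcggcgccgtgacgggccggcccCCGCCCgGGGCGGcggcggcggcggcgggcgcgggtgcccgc
EPHA2, chr1:16156088-16156319, minus strand: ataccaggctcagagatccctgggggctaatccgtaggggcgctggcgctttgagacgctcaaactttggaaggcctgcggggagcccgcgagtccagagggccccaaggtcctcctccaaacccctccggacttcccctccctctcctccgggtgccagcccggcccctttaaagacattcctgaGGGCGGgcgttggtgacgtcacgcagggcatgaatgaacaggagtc
DCC, chr18:52339947-52340171, plus strand: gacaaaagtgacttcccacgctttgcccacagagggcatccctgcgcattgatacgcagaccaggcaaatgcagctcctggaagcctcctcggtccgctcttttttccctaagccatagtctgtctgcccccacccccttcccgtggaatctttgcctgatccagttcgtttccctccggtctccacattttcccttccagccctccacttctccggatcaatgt
The SEMA5A run held 7 GC boxes, counting overlapping matches, UNC5A 3, EPHA8 2, EPHA2 1 and the DCC run 0. Over the whole 250-base windows, GC content was 82% for SEMA5A, 81.2% for UNC5A, 83.2% for EPHA8, 63.2% for EPHA2 and 56% for DCC. These 5 do not stand for all members. SEMA5B, which rose by day 12, had 39.2% GC and 0 boxes, and PLXND1, which fell, had 88.8% and 9. A box occurred in 18 of the 24 matched members at least 2-fold higher at day 12 and in 6 of the 10 lower.

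RefSeq promoter entries matched 60 of the 71 members. Their median GC content over 250 bases was 65%, beside 64.8% for 10991 tested genes and 58% for all 27303 promoters. The ratio of observed to expected CpG was lower in the members than in tested genes, with medians of 0.658 and 0.815, and stood at 0.556 over all promoters. Among the 24 matched members called at least 2-fold higher at day 12 the median GC content was 69.8%, and among the 10 called lower it was 57.2%. A GC box on either strand occurred in 75% of the former, 60% of the latter, 71.7% of matched members, 66.5% of tested genes and 42.3% of all promoters. TATAAA, on either strand, occurred in 1.67% of matched members, 5.39% of tested genes and 11.1% of all promoters, and CCAAT in 33.3%, 34.8% and 33%. These are descriptions of letters in a window, with no test, and say nothing of which factors bind there.

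Guidance genes moved mostly upward under the inhibitor. At day 6, 31 of the 65 tested members were called higher and 9 lower at an edgeR adjusted p below 0.05, where 17.1% of all tested genes were called higher and 17% lower. At day 12 the counts were 41 and 11, beside 33.7% and 33.2% of all tested genes. In either direction, 34.2% of all tested genes were called at day 6 and 66.9% at day 12. Changes of at least 2-fold ran to 18 members up and 0 down at day 6 (7.1% and 0.692% of all genes), and to 28 up and 4 down at day 12 (16.4% and 9.09%). The median log2 fold change over the tested members was 0.36 at day 6 and 0.75 at day 12, beside -0.02 and 0.02 over all tested genes. The 6 members that did not pass the filter were EPHA1, EPHB3, NTN5, ROBO4, SEMA3D and SEMA3G. A gene silent in vehicle passes that filter only if it is read elsewhere, so these counts describe the tested members and not all 71.

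Ligand and receptor medians lay furthest apart in the slit and ephrin systems at day 12. Ephrin ligands had a median log2 fold change of -0.05 at day 6 and 0.22 at day 12, and Eph receptors 1.10 and 1.40. Netrin ligands had 0.91 and 1.95 and their receptors 1.55 and 1.18, semaphorins 0.33 and 0.91 and their receptors 0.42 and 1.03. Slits had 1.13 and 1.25, and the Robo receptors 0.00 and -0.63. Over all systems the day 12 medians were 0.76 for ligands and 0.75 for receptors. No test compared the lists, and the smallest, slits and Robo receptors, rest on 3 tested genes each.

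**Figure D1:**
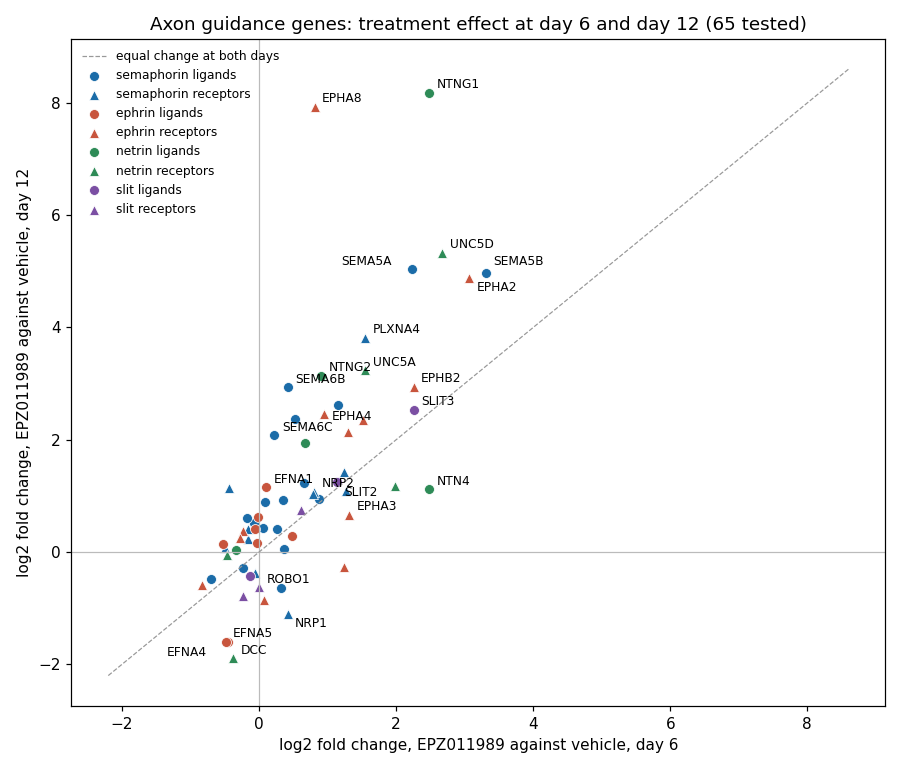
Each point is 1 of the 65 tested genes, with the log2 fold change of EPZ011989 against vehicle at day 6 on the x axis and at day 12 on the y axis, circles for ligands and triangles for receptors, coloured by system. Most points lie above the dashed line of equal change, NTNG1 and EPHA8, with no reads in vehicle at day 12 and so no bounded fold change, lie at the top, and DCC and EFNA5 lie lowest with EFNA4.

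Members called at both days mostly moved the same way. These classes were not counted over all tested genes, so the counts here have no background share beside them. Of the tested members, 27 were called higher at both days and 4 lower at both, namely DCC, EFNA5, SEMA3E and SEMA4D. A further 12 were called higher at day 12 and not called at day 6, and 5 were called lower at day 12 and not called at day 6, which were EFNA4, PLXND1, ROBO1, ROBO3 and SLIT1. NRP1 and SEMA6D were called higher at day 6 and lower at day 12, while PLXNA3 and PLXNB2 went from lower to higher. Neither day gave a call for EFNA2, EFNB3, EPHA5, EPHA6, EPHB4, EPHB6, NTN3 and SEMA4A. The count of members lower at day 6 went from 9 to 5 when vehicle day 6 replicate 3 was left out, and correcting for transcript length also gave 5.

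Netrin receptors diverged, with UNC5A and UNC5D higher and DCC lower. UNC5A, a receptor for netrin-mediated repulsion, stood at 25.3, 26.5 and 27.5 CPM in the vehicle libraries at day 6 and at 75.7, 75.3 and 81.7 CPM with the inhibitor. At day 12 its vehicle libraries had 22.3, 26.4 and 31.0 CPM and the treated libraries 246, 249 and 255 CPM. Treated and vehicle libraries did not overlap at either day, and the rise was larger at day 12. The log2 fold change was 1.55 ± 0.09 at day 6 (edgeR adjusted p = 6.88e-09) and 3.24 ± 0.09 at day 12 (4.25e-13), and the difference between the days was 1.68 ± 0.12 (6.13e-08). Exons of HK3, a hexokinase gene, overlap UNC5A on the opposite strand, and the sources used here do not say whether counting used strand.

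UNC5D, a family member with few reads in vehicle, had 0.387, 0.163 and 0.634 CPM at day 6 without and 2.64, 2.95 and 2.08 CPM with the inhibitor. By day 12 the values were 0.0644, 0.448 and 0.580 CPM in vehicle and 15.8, 14.4 and 14.8 CPM in treated cells. UNC5D thus moved from near the level of 3 reads to a clearly read gene in every treated library. The log2 fold changes were 2.67 ± 0.42 at day 6 and 5.33 ± 0.42 at day 12. UNC5D passed the filter on low counts through the treated libraries, so no p is given.

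UNC5B, the most abundant UNC5 receptor in vehicle cells, was lower at day 6 and not called at day 12. Its mean was 283 ± 7.51 CPM in vehicle and 205 ± 7.83 CPM with the inhibitor at day 6 (log2 fold change -0.46 ± 0.05, edgeR adjusted p = 4.95e-06). At day 12 it was 301 ± 19.7 and 289.9 ± 7.02 CPM, with overlapping libraries (-0.06 ± 0.05, adjusted p = 0.326). The difference between the days was 0.41 ± 0.07 (edgeR adjusted p = 2.12e-04). UNC5C stayed at or under 1.28 CPM in every library and passed the filter on low counts through the treated libraries, so no p is given. Its fold change of 1.98 ± 0.64 at day 6 was no longer called when any of 5 single libraries was left out.

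DCC, the receptor for netrin-mediated attraction, fell. Its vehicle libraries had 25.3, 30.7 and 30.1 CPM at day 6 and 27.2, 27.7 and 29.6 CPM at day 12. The treated libraries had 21.1, 22.1 and 23.1 CPM at day 6 and 7.42, 9.10 and 6.12 CPM at day 12. Every treated library lay below every vehicle library of its day, with log2 fold changes of -0.38 ± 0.12 (edgeR adjusted p = 0.0213) and -1.89 ± 0.13 (5.65e-09). The day 6 fall was not called without vehicle replicate 2 or 3 or treated replicate 1 or 2, at adjusted p = 0.0576 to 0.111. Per transcript length, UNC5A made up 13.6% of the summed netrin receptor level in vehicle at day 12 and 60.2% with the inhibitor, UNC5B 80.5% and 37.0%, and DCC 5.72% and 0.840%.

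Among netrin ligands, NTNG1, NTNG2, NTN1 and NTN4 were called higher at day 12. NTNG1 encodes netrin-G1, a membrane-anchored netrin that binds a synaptic leucine-rich protein and not DCC. It had 0 reads in all 3 vehicle libraries at day 12 and 44, 30 and 41 reads with the inhibitor, or 2.25, 1.51 and 2.30 CPM. Set against a floor of 3 reads in each vehicle library, the level was at least 10.9-fold higher. NTNG1 passed the filter on low counts through the treated libraries of day 12, so no p is given for that rise. At day 6 it had 3, 0 and 1 reads in vehicle and 6, 7 and 10 with the inhibitor (adjusted p = 0.0279), a call lost when any of 4 single libraries was left out, at adjusted p = 0.0637 to 0.0939. Its relative NTNG2 stood at 0.386, 0.841 and 0.902 CPM in vehicle and 5.42, 5.78 and 7.75 CPM in treated cells at day 12, up by 3.14 ± 0.35 on the log2 scale (edgeR adjusted p = 1.97e-06).

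NTN1, the secreted netrin that DCC and UNC5 receptors bind, had 1.42, 1.06 and 1.61 CPM in vehicle and 5.53, 5.28 and 5.00 CPM with the inhibitor at day 12 (1.95 ± 0.28, edgeR adjusted p = 2.72e-05). Its day 6 change was 0.67 ± 0.27 and not called (adjusted p = 0.0739). NTN4, a laminin-like netrin, had 1.61, 0.841 and 0.902 CPM in vehicle and 2.10, 2.71 and 2.47 CPM with the inhibitor at day 12. That change of 1.12 ± 0.40 (edgeR adjusted p = 0.0243) was lost with 4 single libraries left out (adjusted p = 0.0543 to 0.0882) and with a transcript length correction (0.798). NTN4 also was called higher in vehicle at day 12 than at day 6 (1.48 ± 0.46, adjusted p = 0.0499). NTN3 held 86.5% to 98.0% of the summed ligand level per length in the 4 groups. It was not called, at 0.04 ± 0.15 for day 12, and NTN5 was too low to test.

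**Figure D2:**
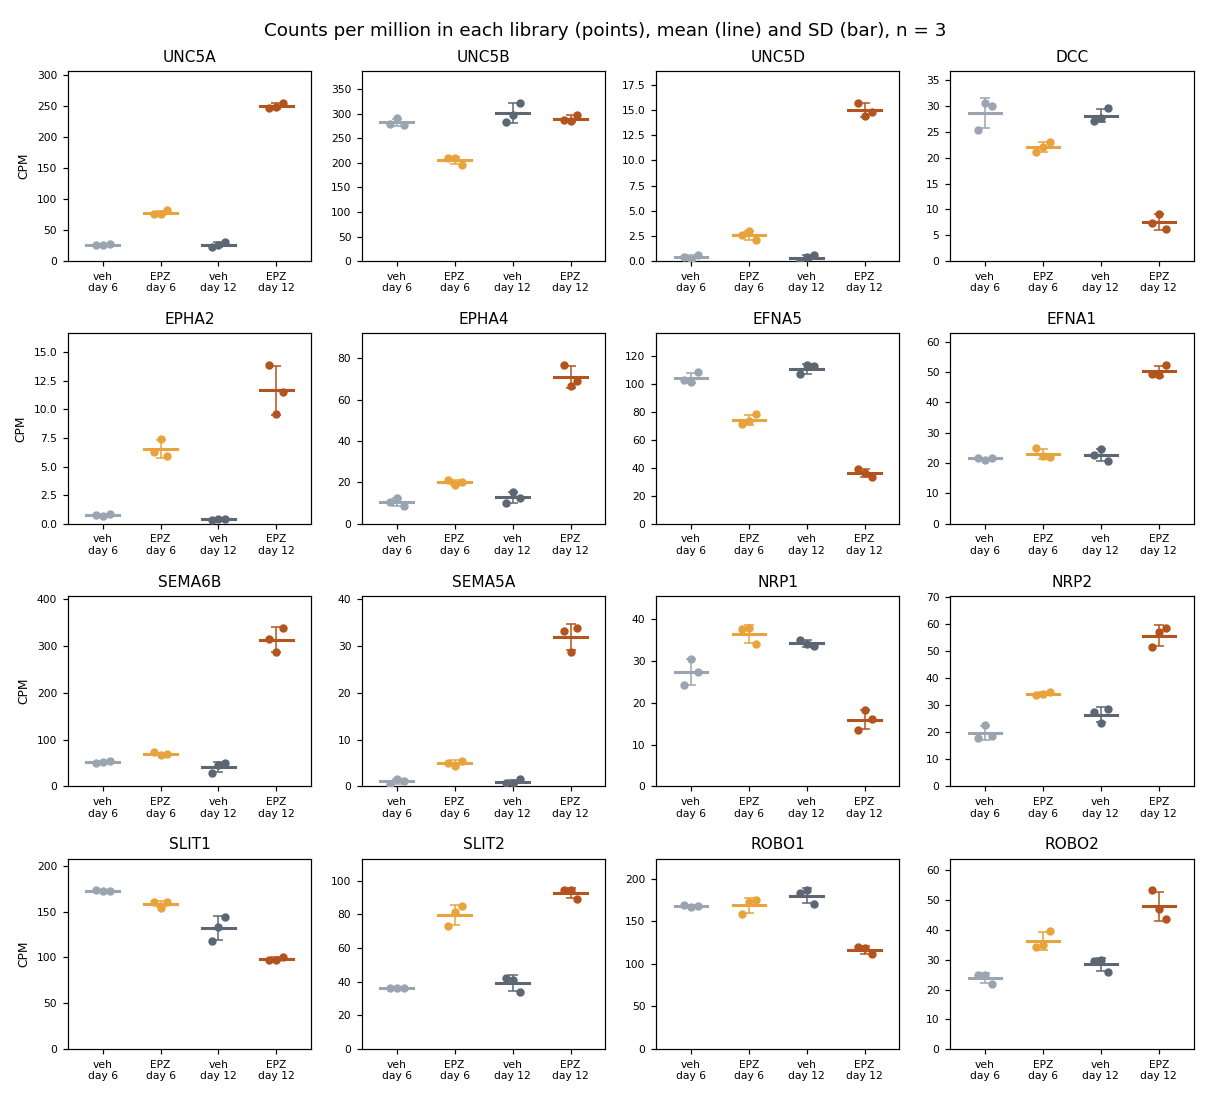
CPM in each of the 12 libraries (points) for 16 genes, with group mean (line) and SD (bar, n = 3) for vehicle (veh) and EPZ011989 (EPZ) at each day, every y axis starting at 0. UNC5A, UNC5D, SEMA6B and SEMA5A stand highest with the inhibitor at day 12, DCC and EFNA5 lowest there, and NRP1 is above vehicle at day 6 and below it at day 12.

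No Eph receptor was called lower at either day. Of the 12 tested, 6 were called higher at day 6, where 17.1% of all tested genes were, and 8 at day 12, where 33.7% were. EPHA2, which binds ephrin-A1, stood at 0.773, 0.652 and 0.898 CPM in vehicle and 6.27, 7.37 and 5.89 CPM with the inhibitor at day 6. At day 12 it stood at 0.322, 0.448 and 0.387 CPM and 13.9, 9.60 and 11.5 CPM. No treated library overlapped a vehicle library, with log2 fold changes of 3.06 ± 0.23 (edgeR adjusted p = 1.64e-07) and 4.89 ± 0.26 (4.31e-10).

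EPHA8 was almost unread in vehicle, with 0 reads in all 3 libraries at day 12 and 1 read in all at day 6. It had 2 reads in the treated libraries at day 6 and 36, 28 and 33 at day 12, or 1.84, 1.41 and 1.85 CPM. Against the floor of 3 reads in each vehicle library, that was at least 9.20-fold higher. EPHA8 passed the filter on low counts through these treated libraries, so no p is given. The EPHA8 promoter shown above had the highest GC content of the 5.

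EPHA4, which binds ephrins of both classes, rose at both days. It had 10.5, 12.2 and 8.45 CPM in vehicle and 21.1, 18.7 and 20.4 CPM with the inhibitor at day 6, then 10.2, 15.5 and 12.6 against 76.6, 66.6 and 69.1 CPM at day 12. The log2 fold changes were 0.95 ± 0.14 (edgeR adjusted p = 1.57e-04) and 2.46 ± 0.14 (1.06e-09). Per length, its share of the summed Eph receptor level went from 10.6% in vehicle to 28.2% with the inhibitor at day 12. EPHA10, a receptor without kinase activity, went from 58.2% to 29.5% while its own call at day 12 (0.38 ± 0.11, adjusted p = 0.00645) was lost with a length correction (0.10, adjusted p = 0.726).

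EPHB1 and EPHB2, receptors for ephrin-B ligands, rose at both days. EPHB2 had 0.193, 1.85 and 1.67 CPM in vehicle and 8.95, 10.1 and 10.1 CPM with the inhibitor at day 12 (2.95 ± 0.44, edgeR adjusted p = 3.19e-05). EPHB1 had 4.57, 3.98 and 6.12 CPM in vehicle and 25.2, 27.5 and 21.9 CPM in treated cells (2.35 ± 0.19, 4.21e-08). At day 6 their log2 fold changes were 2.25 ± 0.43 and 1.51 ± 0.19. EPHB1 overlaps exons of KY on the opposite strand.

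EPHA7 and EPHA3, both receptors for ephrin-A ligands, rose at both days. EPHA7 rose from 4.57, 5.04 and 5.41 CPM in vehicle to 21.8, 20.1 and 24.1 CPM at day 12, with a log2 fold change of 1.29 ± 0.17 at day 6 and 2.13 ± 0.16 at day 12 (edgeR adjusted p = 3.20e-08). The difference between the days, 0.84 ± 0.23, was reduced to between 0.51 and 0.53 and not called with a length correction or limma (adjusted p = 0.0974 to 0.128). EPHA3 was 5.13 ± 0.904 CPM in vehicle and 12.7 ± 2.35 CPM treated at day 6 (1.31 ± 0.18), but 5.35 ± 0.772 and 8.49 ± 0.152 CPM at day 12 (0.67 ± 0.18, edgeR adjusted p = 0.00434). The difference between the days for EPHA3, -0.64 ± 0.25 at adjusted p = 0.0492, was lost under 8 of the settings tried and when any of 8 single libraries was left out.

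The other Eph receptors were low or not called. EPHA5 was 16.4 ± 1.01 CPM with the inhibitor and 13.9 ± 1.77 CPM in vehicle at day 12 (0.25 ± 0.13, adjusted p = 0.11). EPHA6, EPHB4 and EPHB6 stayed under 5 CPM in every library, and EPHB6, which also lacks kinase activity, ranged from 0 to 4.23 CPM within the vehicle libraries of day 6 alone. The reads summed for EPHB6 and EPHB3 were 0.335 and 0.745 of the authors' deposited level, outside the range of 0.8 to 1.25 that held the other 69 members, so their values depend on which transcripts are summed. EPHB3 went from 1 read in all vehicle libraries to 25 in the treated ones at day 12, a ratio of 21.4 with a 95% counting interval of 3.50 to 877. The treated libraries had 1, 9 and 15 of these reads and overlapped vehicle, and EPHA1 was at or under 0.169 CPM everywhere.

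Ephrin ligands split by gene. EFNA1, a ligand of EPHA2, had 22.7, 24.6 and 20.5 CPM in vehicle and 49.4, 49.2 and 52.3 CPM with the inhibitor at day 12 (1.15 ± 0.08, edgeR adjusted p = 9.46e-09). At day 6 it was 21.5 ± 0.309 and 23.0 ± 1.59 CPM and not called (0.10 ± 0.08, adjusted p = 0.393). EFNA5, a membrane-anchored ligand of several EphA receptors, had 107, 114 and 113 CPM in vehicle and 39.6, 36.6 and 33.8 CPM with the inhibitor at day 12. Its fall was already present at day 6, from 103, 102 and 109 to 71.4, 73.7 and 78.4 CPM.

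The EFNA5 log2 fold changes were -0.49 ± 0.06 at day 6 (edgeR adjusted p = 2.92e-05) and -1.60 ± 0.06 at day 12 (2.24e-11). A transcript length correction ended the day 6 call at adjusted p = 0.315 and left that of day 12. EFNA4, a further GPI-anchored ligand, had 2.38, 2.58 and 1.22 CPM in vehicle and 0.461, 0.452 and 1.12 CPM in treated cells at day 12 (-1.61 ± 0.45, edgeR adjusted p = 0.00588). Its lowest vehicle library and its highest treated library lay close together. In share of the summed ephrin level per length at day 12, EFNA1 went from 17.9% in vehicle to 37.8% with the inhibitor, EFNA5 from 28.2% to 8.42% and EFNA3 from 27.2% to 26.5%.

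Among the other ephrins, EFNB1, a transmembrane ligand, was called higher at day 12 (0.62 ± 0.13, adjusted p = 6.81e-04), and EFNB2 at both days (0.47 ± 0.09 and 0.29 ± 0.09). EFNA3 was called lower at day 6 and not at day 12 (-0.52 ± 0.15, adjusted p = 0.012), a call lost when any of 3 single libraries was left out. EFNA3 and EFNA4 share exons with a readthrough transcript annotated across them, so reads may be split between these genes. EFNB3 and EFNA2 were not called at either day.

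Of 18 tested semaphorin ligands, 13 were called higher and 3 lower at day 12, beside 33.7% and 33.2% of all tested genes. The transmembrane class 6 member SEMA6B had 28.9, 45.2 and 49.1 CPM in vehicle and 316, 287 and 339 CPM with the inhibitor at day 12. At day 6 the values were 49.6, 53.0 and 53.7 CPM and 72.8, 67.2 and 69.0 CPM. The rise was thus small at day 6 (0.42 ± 0.13, edgeR adjusted p = 0.0232) and large at day 12 (2.93 ± 0.13, 9.63e-11), a difference of 2.51 ± 0.19 (8.12e-08). The day 6 call was lost without vehicle replicate 1 or treated replicate 1 or 3, at adjusted p = 0.0531 to 0.0767.

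SEMA6C, of the same class, had 33.2, 37.8 and 41.6 CPM in vehicle and 161, 145 and 169 CPM in treated cells at day 12 (2.08 ± 0.08, edgeR adjusted p = 9.64e-12). At day 6 its change was 0.22 ± 0.08, and that call was lost when any of 6 single libraries was left out (adjusted p = 0.0513 to 0.0963). The other class 6 genes had no called rise at day 12. SEMA6A was 177 ± 0.882 and 227 ± 7.64 CPM at day 6 (0.36 ± 0.04, reduced to between 0.16 and 0.18 and not called with a length correction or limma) but 184 ± 6.59 and 191 ± 2.35 CPM at day 12 (0.05 ± 0.04, adjusted p = 0.245). SEMA6D was higher at day 6 (0.32 ± 0.09, edgeR adjusted p = 0.0113) and lower at day 12 (-0.64 ± 0.09, 1.83e-05), a reversal tested at -0.95 ± 0.12 (2.22e-05). Its day 6 call was lost without EPZ011989 day 6 replicate 3 (edgeR adjusted p = 0.0553).

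The class 5 semaphorins, transmembrane proteins with thrombospondin repeats, came up from low levels. SEMA5A had 0.644, 0.729 and 1.55 CPM in vehicle and 33.2, 28.7 and 33.8 CPM with the inhibitor at day 12. At day 6 it had 0.497, 1.57 and 1.11 and then 5.09, 4.42 and 5.48 CPM. Its log2 fold changes of 2.23 ± 0.30 (edgeR adjusted p = 5.66e-05) and 5.04 ± 0.30 (1.67e-09) make it the ligand with the largest called rise at day 12 among those with more than 3 reads in vehicle. SEMA5B had 3 reads in all vehicle libraries together at day 12 and 34, 43 and 44 reads in the treated ones. The ratio was 34.5 with a 95% counting interval of 11.5 to 169. SEMA5B passed the filter on low counts through the treated libraries, so no p is given.

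Among secreted class 3 semaphorins, SEMA3B changed most. It had 6.37, 10.5 and 11.3 CPM in vehicle and 54.9, 54.9 and 63.3 CPM with the inhibitor at day 12 (2.61 ± 0.16, edgeR adjusted p = 2.62e-09), after 10.9, 11.8 and 9.30 against 21.4, 24.6 and 25.5 CPM at day 6 (1.15 ± 0.16). SEMA3C and SEMA3F, which also bind neuropilins, were called higher at day 12 by 0.42 ± 0.06 and 0.43 ± 0.07. SEMA3E, which signals through plexin D1, was lower at both days, at -0.70 ± 0.06 and -0.48 ± 0.06. SEMA3A, the best known ligand of neuropilin-1, was called higher at day 12 (0.51 ± 0.08), a change of 0.01 after a length correction (adjusted p = 0.961). SEMA3D and SEMA3G were too low to test.

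SEMA7A, a membrane-anchored semaphorin that binds plexin C1, had 1.09, 0.504 and 0.773 CPM in vehicle and 3.17, 4.47 and 4.61 CPM in treated cells at day 12 (2.37 ± 0.44, edgeR adjusted p = 2.81e-04). SEMA4B reached 14.1, 13.7 and 17.6 CPM from 4.57, 6.84 and 7.99 CPM (1.22 ± 0.19, 4.21e-05). SEMA4C, SEMA4F and SEMA4G, transmembrane like SEMA4B, were called higher at day 12 by 0.61 to 0.93. SEMA4G overlaps exons of MRPL43, and its call was lost with a length correction (adjusted p = 0.118). SEMA4D, a ligand of plexin B1, was the only class 4 gene called lower at day 12 (-0.29 ± 0.08, adjusted p = 0.00448), again lost with that correction (0.112), and SEMA4A was not called. The day 6 call of SEMA4D (-0.24 ± 0.08) was lost when any of 6 single libraries was left out (edgeR adjusted p = 0.0555 to 0.217). It was also lost under 4 other settings.

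Neuropilins moved apart. NRP1 had 24.3, 30.4 and 27.4 CPM in vehicle and 37.6, 37.96 and 34.0 CPM with the inhibitor at day 6. At day 12 it had 35.1, 34.0 and 33.6 CPM against 13.6, 18.3 and 16.1 CPM. NRP1 was therefore above vehicle in every library at day 6 and below it in every library at day 12, with log2 fold changes of 0.42 ± 0.10 (edgeR adjusted p = 0.00681) and -1.10 ± 0.11 (4.71e-07). The difference was -1.51 ± 0.15 (1.62e-06), while the day 6 call alone was lost with a length correction (adjusted p = 0.335).

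NRP2 had 27.4, 23.4 and 28.6 CPM in vehicle and 51.5, 57.05 and 58.6 CPM with the inhibitor at day 12 (1.08 ± 0.10, edgeR adjusted p = 1.82e-07). At day 6 it was also higher, at 0.80 ± 0.10, though a length correction reduced that to 0.17 (adjusted p = 0.653). In vehicle cells NRP2 was called higher at day 12 than at day 6 (0.42 ± 0.10, edgeR adjusted p = 0.0203), a call that limma on the authors' table did not make (0.11, adjusted p = 0.831).

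Plexins A1, A2, A4 and C1 rose, and those of the B and D classes moved less or in both directions. PLXNA4, a co-receptor for class 3 semaphorins, had 0.322, 0.448 and 0.322 CPM in vehicle and 5.22, 5.33 and 5.23 CPM with the inhibitor at day 12 (3.82 ± 0.35). PLXNA4 passed the filter on low counts through the treated libraries, so no p is given for that rise. Its day 6 change of 1.55 ± 0.33 turned to -0.09 with a length correction (adjusted p = 0.944). PLXNA1 reached 148, 141 and 145 CPM from 62.5, 72.0 and 77.7 CPM (1.03 ± 0.08, edgeR adjusted p = 1.94e-08), after 0.78 ± 0.08 at day 6.

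PLXNA2 had 18.2, 14.7 and 14.6 CPM in vehicle and 35.1, 35.8 and 30.0 CPM in treated cells at day 12 (1.09 ± 0.10, edgeR adjusted p = 2.68e-07), and with a length correction 0.72 (adjusted p = 0.0533). PLXNC1, the receptor of SEMA7A, went from 4.83, 1.96 and 3.74 to 10.2, 9.35 and 8.77 CPM (1.43 ± 0.25, 1.49e-04). It overlaps CEP83 on the opposite strand. PLXNA2 and PLXNC1 were called higher at day 6 as well, by 1.27 ± 0.10 and 1.23 ± 0.26. The PLXNC1 call at day 6 was lost with a length correction and with limma at a pseudocount of 1. Its change there was 1.0 to 1.05, at adjusted p = 0.0514 to 0.0821.

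PLXNB3 was at 1.09, 1.18 and 1.74 CPM in vehicle and 4.09, 2.66 and 2.14 CPM in treated cells at day 12. Its call (1.15 ± 0.37, edgeR adjusted p = 0.0129) was lost without EPZ011989 day 12 replicate 1 (0.86, adjusted p = 0.0763) and with a length correction (adjusted p = 0.627), and it overlaps SRPK3. The abundant PLXNA3 and PLXNB2 were called lower at day 6 (-0.17 ± 0.04 and -0.16 ± 0.05) and higher at day 12 (0.23 ± 0.04 and 0.41 ± 0.05). A length correction ended all 4 of these calls, at adjusted p between 0.235 and 0.725. PLXNB1 was called lower at day 6 and not at day 12 (-0.50 ± 0.07, edgeR adjusted p = 7.15e-05), and PLXND1, the receptor of SEMA3E, at day 12 and not at day 6 (-0.38 ± 0.05, 1.94e-05).

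Slits and their receptors were the smallest system. SLIT2 had 36.3, 36.2 and 36.4 CPM in vehicle and 73.1, 81.2 and 85.0 CPM with the inhibitor at day 6, and 42.2, 41.2 and 33.7 against 94.3, 94.2 and 89.2 CPM at day 12. SLIT2 was thus raised at both days (1.13 ± 0.08 and 1.25 ± 0.08, edgeR adjusted p = 9.15e-08 and 4.74e-09), and the difference between them, 0.11 ± 0.11, was not called (adjusted p = 0.455). SLIT3 had 2.70, 1.40 and 1.55 CPM in vehicle and 10.9, 9.30 and 12.6 CPM in treated cells at day 12 (2.54 ± 0.25, edgeR adjusted p = 5.03e-07), after 2.26 ± 0.26 at day 6.

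SLIT1, the most abundant slit per length in vehicle, was lower at day 12, with 118, 133 and 144 CPM in vehicle and 96.7, 97.0 and 101 CPM with the inhibitor (-0.42 ± 0.06, edgeR adjusted p = 1.84e-05). It was also called lower in vehicle at day 12 than at day 6 (-0.39 ± 0.06, 0.00441). A readthrough transcript with ARHGAP19 shares its exons. The share of SLIT1 in the summed slit level per length was 74.4% in vehicle and 44.3% with the inhibitor at day 12, and that of SLIT2 23.5% and 49.7%.

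Robo receptors moved in opposite directions. ROBO1, a main slit receptor, had 184, 186 and 171 CPM in vehicle and 119.5, 119 and 111 CPM with the inhibitor at day 12 (-0.63 ± 0.05, edgeR adjusted p = 4.39e-08). At day 6 both groups averaged 168 CPM (0.00 ± 0.05, adjusted p = 0.975). ROBO2, which also binds slits, had 29.5, 30.0 and 26.0 CPM in vehicle and 53.3, 47.0 and 43.8 CPM in treated cells at day 12 (0.75 ± 0.09, edgeR adjusted p = 5.51e-06), after 0.61 ± 0.10 at day 6. ROBO3, a divergent family member, was lower at day 12 (-0.79 ± 0.14, adjusted p = 2.21e-04). ROBO4, the endothelial member, was at or under 0.205 CPM in every library.

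**Figure D3:**
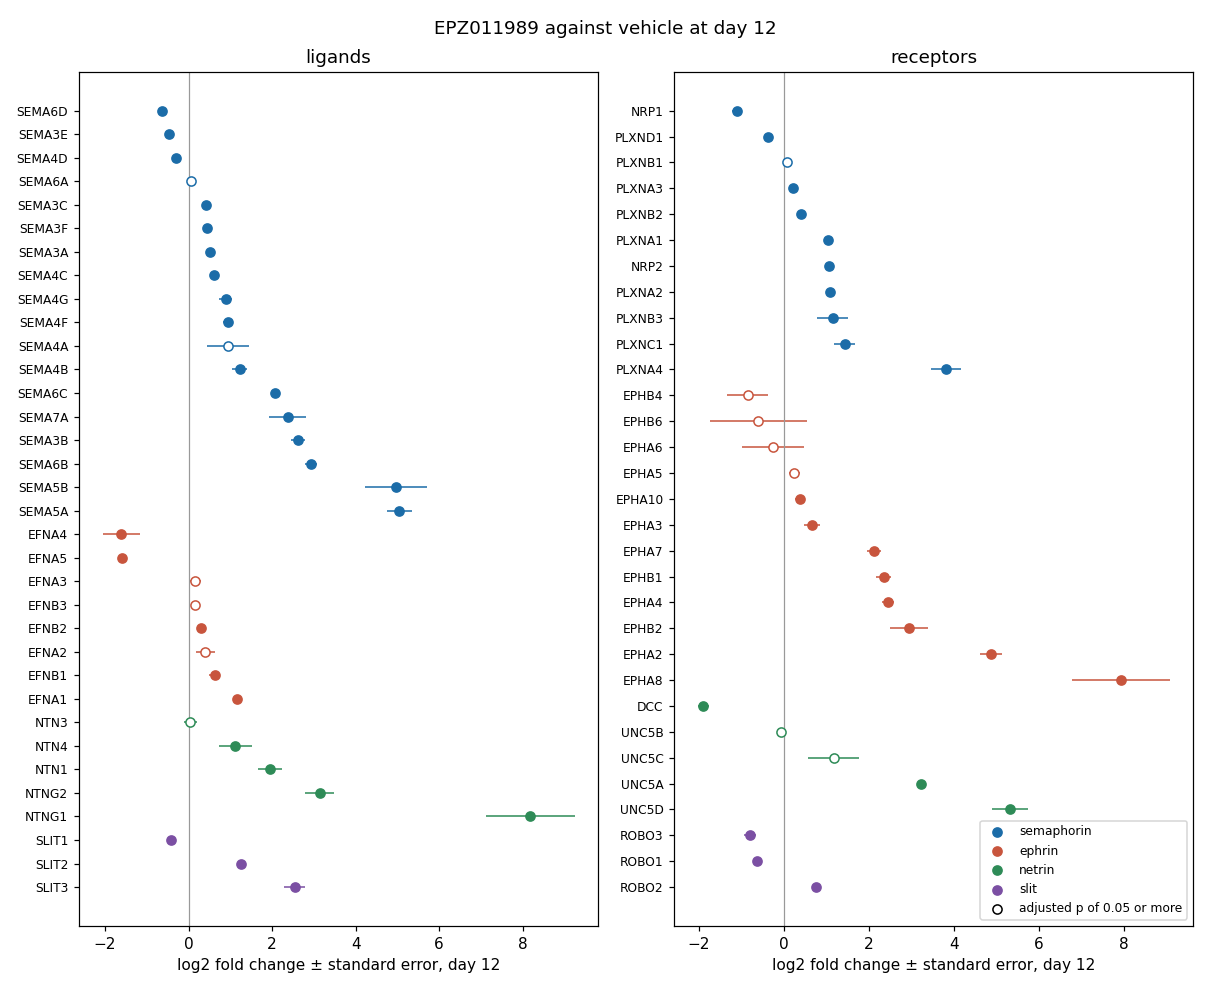
Log2 fold change of EPZ011989 against vehicle at day 12 with its standard error for the 34 tested ligands and 31 tested receptors, grouped and coloured by system, filled where called and open where not. The Eph receptors lie at or right of 0 apart from EPHA6, EPHB4 and EPHB6, none of which is called, and the Robo receptors lie on both sides.

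Levels summed per length, in TPM, the authors' level corrected for transcript length, over all members of a list, set these changes in proportion. Semaphorin ligands summed to 351 ± 31.0 TPM in vehicle and 647 ± 14.3 TPM with the inhibitor at day 12, while their receptors summed to 328 ± 12.2 and 357 ± 23.1 TPM. Netrin ligands summed to 60.4 ± 10.3 and 65.4 ± 1.75 TPM and netrin receptors to 90.7 ± 6.83 and 202 ± 2.97 TPM. The sum of ligands grew more than that of receptors for semaphorins, and the reverse held for netrins.

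Ephrin ligands summed to 156 ± 22.5 TPM in vehicle and 187 ± 0.296 TPM with the inhibitor at day 12, and Eph receptors to 39.8 ± 5.33 and 90.7 ± 7.26 TPM. Slits summed to 38.8 ± 1.89 and 48.5 ± 2.36 TPM and Robo receptors to 92.3 ± 6.72 and 73.5 ± 10.2 TPM. The ratio of ligand to receptor at day 12 went from 1.07 in vehicle to 1.82 with the inhibitor for semaphorins, from 3.91 to 2.07 for ephrins, from 0.663 to 0.324 for netrins and from 0.421 to 0.666 for the slit system. At day 6 the same ratios were 1.21 and 1.43, 4.24 and 2.65, 0.766 and 0.642, and 0.556 and 0.683. These sums carry no test, and they follow the most abundant genes of each list.

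**Figure D4:**
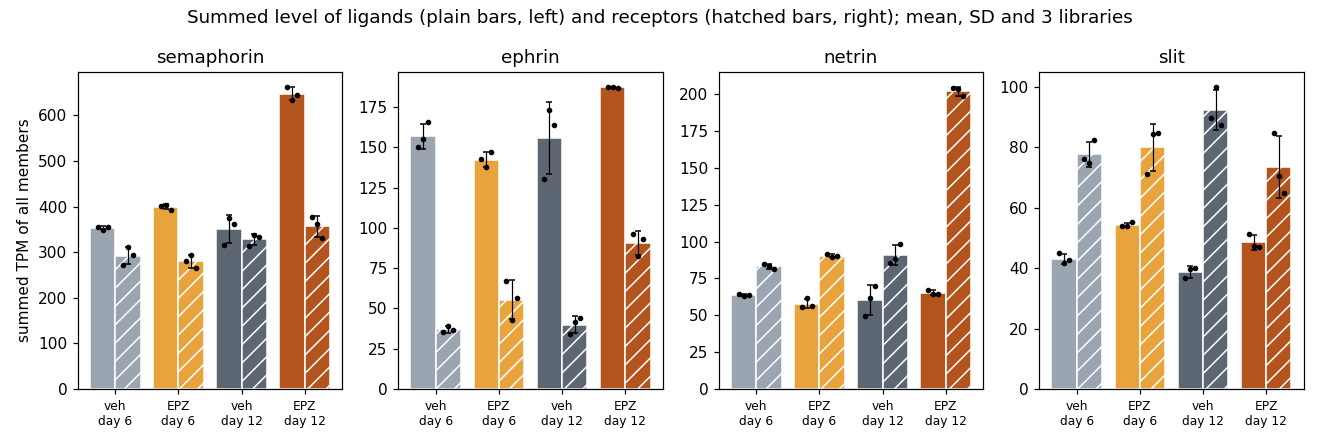
Summed TPM of all ligands (plain bars) and all receptors (hatched bars) of each system in the 4 groups, with the mean, SD and the 3 libraries as points, every axis starting at 0. Semaphorin ligands reach 647 TPM and netrin receptors 202 TPM with the inhibitor at day 12, and Eph receptors rise from 39.8 to 90.7 TPM.

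Treatment effects changed between the days for 40 of the 65 tested members, 30 toward higher and 10 toward lower, where 47.7% of all tested genes were called, 22.6% toward higher and 25.1% toward lower. At least 2-fold differences were called for 18 members, 15 toward higher and 3 toward lower, beside 8.16% of all tested genes toward higher and 6.86% toward lower. The called members include NTNG1, UNC5D and PLXNA4, which passed the filter on low counts through treated libraries, so their calls carry no weight as tests. Among those with the largest such differences were SEMA5A at 2.81 ± 0.45 (edgeR adjusted p = 1.33e-04) and UNC5D at 2.66 ± 0.64. On the other side were DCC at -1.52 ± 0.17 (edgeR adjusted p = 5.28e-06) and NRP1 at -1.51 ± 0.15. In vehicle cells alone, 7 members were called between day 12 and day 6, 3 higher (NRP2, NTN4 and SEMA3C) and 4 lower (EPHA10, SEMA4C, SEMA6C and SLIT1), where 13.1% of all tested genes were called, 5.96% higher and 7.15% lower. Only NTN4 changed at least 2-fold there, beside 0.24% of all tested genes higher and 0.326% lower. The count of members was 3 to 4 when vehicle day 6 replicate 1, 2 or 3 or vehicle day 12 replicate 1 or 2 was left out, and 18 without vehicle day 12 replicate 3. Of all tested genes, 184 of 15384 to 1834 of 15400 were called in the former fits, and 4183 of 15407 in the last. None of the 7 was called in a fit of the vehicle libraries alone, with a length correction or with limma. Few genes of any kind were called in these fits: 9 of 13867 with the vehicle libraries alone and 89 of 15024 with the length correction. With limma it was 179 of 13621 or 165 of 13749. The treatment comparisons share these vehicle libraries.

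Other genes of the pathway were counted in lists of further cues with co-receptors and of signalling effectors, both chosen with earlier results known. Of 30 tested cues and co-receptors, 15 were called higher and 9 lower at day 12, beside 33.7% and 33.2% of all tested genes, and 13 and 8 at day 6, beside 17.1% and 17%. CNTN2, an axonal adhesion molecule, stood at 192 ± 19.8 CPM in vehicle and 1437 ± 49.8 CPM with the inhibitor at day 12 (2.90 ± 0.06, edgeR adjusted p = 4.24e-14). NRCAM, an adhesion molecule of the L1 family, rose from 18.1 ± 0.572 to 155 ± 10.3 CPM (3.10 ± 0.07, 1.13e-13).

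GPC3, a heparan sulfate proteoglycan, fell from 128 ± 1.19 to 26.0 ± 2.64 CPM (-2.29 ± 0.07, edgeR adjusted p = 6.20e-13). Of 52 tested effectors, 24 were called higher and 20 lower at day 12, and 20 and 7 at day 6, against the same shares of all tested genes. The effectors named here are among the 10 pathway genes with the smallest p at day 12, which held none of the 20 called lower. PAK3, a kinase activated by Rac and Cdc42, rose by 2.62 ± 0.15, VAV3, an exchange factor that Eph receptors recruit, by 3.24 ± 0.20, and ENAH, an actin regulator used in netrin and slit responses, by 0.80 ± 0.03. The median log2 fold change at day 12 was 0.18 for the effectors and 0.53 for the cues and co-receptors, beside 0.02 over all tested genes.

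The 3 members with the largest fitted rises were set beside the members most like them across the 12 libraries. Being chosen for their rises, they favour other genes that rose. By Pearson r of log2(CPM + 1), NTNG1 was most like UNC5D (0.972), NTNG2 (0.969) and SEMA6B (0.968). EPHA8 was most like EFNA1 (0.989), SEMA6B (0.963) and NTNG2 (0.947), and UNC5D most like UNC5A (0.991), SEMA5A (0.985) and SEMA3B (0.976). These libraries share the 4 groups, so the values describe a common order of groups and carry no test.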

How the data were processed

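RNA-seq libraries of MKL-1 cells, 3 per group in 4 groups, were analysed. Per the submitters' processing notes, FastQC, Salmon 1.2.0 and DESeq2 were used with build hg38. The deposited per-library files give, per transcript, Salmon's estimated count and TPM, which the authors produced per the file headers. The authors also deposited a gene table of normalized levels, a signal whose normalization the sources used here do not give. It served to choose the genes and for an alternative test.

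Transcripts were matched to GENCODE v29, 93.5% of them, and 3.08% to 3.58% of the reads of each library were unmatched and left out. Estimated counts were summed per gene and rounded, and TPM were summed per gene. edgeR 4.0.16 (R 4.3.3) fitted all 12 libraries with TMM scaling and filterByExpr, and two-sided quasi-likelihood tests compared treatment with vehicle at each day, both treatment effects with each other, and the vehicle groups with each other. Benjamini-Hochberg adjustment ran over 15024 genes and calls were made below 0.05. The common coefficient of biological variation was 10.1%. Tested on simulated data with 200 changed genes, the fit recovered 84% of 2-fold and 99% of 4-fold changes at day 6 and 73% and 97% at day 12. For the difference between the days it recovered 72% and 88%. Unchanged genes called numbered 13, 10 and 11. Far fewer genes changed there than were called in these data, and all had a mean of at least 1 CPM. Recovery at lower levels was not tested. Fold changes with a group at 0 reads use a floor of 3 reads in each library, and counting intervals are exact at 95%. Intervals and floors cover counting error only.

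Values in every library are given for members called at 2-fold or more that reach 1 CPM on average in their higher group, at most 6 per system and role, and for their partners. At most 10 other pathway genes, those with the smallest p at day 12, could be named. The members and lists were chosen with earlier results of these data known. Exons of 26 members overlap those of another gene, and the sources used here do not give the strand setting of the counting. Alternatives were another scaling, other filters, DESeq2 1.42.0, limma 3.58.1 on the authors' table, a transcript length offset, a replicate block, stricter thresholds and leaving out each library.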

Additional observations from a re-analysis of the deposited data

Results flagged for a closer look

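The inhibitor's effect at day 12 differed from its effect at day 6 for 40 members by the interaction term of the edgeR fit, called at an adjusted p below 0.05. The 40 members include NTNG1, UNC5D and PLXNA4, which passed the filter on low counts through treated libraries. For these the call carries no weight as a test. The values that follow are day 12 minus day 6 on the log2 scale. A positive value means a larger rise or a smaller fall at day 12.

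Among semaphorins the difference was 2.81 for SEMA5A, 2.51 for SEMA6B, 1.86 for SEMA6C, 1.84 for SEMA7A and 1.46 for SEMA3B. It was 0.80 for SEMA4G, 0.79 for SEMA4C, 0.59 for SEMA4F, 0.59 for SEMA3A and 0.38 for SEMA3F, and -0.31 for SEMA6A and -0.95 for SEMA6D. Among their receptors it was 2.27 for PLXNA4, 1.59 for PLXNB3, 0.57 for PLXNB2, 0.57 for PLXNB1 and 0.40 for PLXNA3, and -0.32 for PLXND1 and -1.51 for NRP1. SEMA6D and NRP1 lay above vehicle at day 6 and below it at day 12.

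Among ephrins it was 1.06 for EFNA1, 0.67 for EFNA3, 0.64 for EFNB1 and -1.11 for EFNA5. Among Eph receptors it was 1.83 for EPHA2, 1.51 for EPHA4, 0.84 for EPHA7, 0.84 for EPHB1, 0.62 for EPHA10, 0.53 for EPHA5 and -0.64 for EPHA3.

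Among netrins it was 5.70 for NTNG1, a fitted value that rests on a group with no reads and is no bound, 2.23 for NTNG2 and 1.28 for NTN1. Among netrin receptors it was 2.66 for UNC5D, 1.68 for UNC5A, 0.41 for UNC5B and -1.52 for DCC. In the slit system it was -0.30 for SLIT1, -0.56 for ROBO3 and -0.63 for ROBO1. Of the 40 calls, 21 were kept under every setting tried. The other 19 were lost under at least 1. A transcript length offset, and likewise limma on the authors' table, ended the calls of EPHA3, EPHA7, EPHA10, PLXNA3, PLXNB1, PLXNB2, PLXNB3, SEMA3A, SEMA3F, SEMA4F, SEMA4G and SEMA6A, with EPHA10 reduced to between 0.07 and 0.15, and the offset alone those of EFNB1 and NTN1. Leaving out 1 library ended the calls of EPHA3, EPHA5, EPHB1, NTNG1, PLXNB3, ROBO3 and SEMA7A.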

How the results depend on the processing

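Of the 52 members called at day 12, 43 kept direction and call under every setting tried, as did 20 of 40 at day 6 and 21 of 40 for the difference between days. A transcript length offset, or limma on the authors' table, ended the call of 9, 13 and 14 members, and leaving out 1 library that of 2, 11 and 7. The cause was not tested. Only PLXNA4 at day 6 changed sign, at -0.087 with the length offset and -0.13 and -0.18 with limma at pseudocounts of 1 and 5. Of the 9 members lower at day 6, 5 remained in number with the length offset, with limma at either pseudocount and below an adjusted p of 0.01. With at least 2-fold required, the counts were 18 higher and 0 lower at day 6, 4 lower at day 12, 18 for the difference and 1 for vehicle time. For vehicle time the 7 calls became 11 without a filter on low counts, 3 below an adjusted p of 0.01, and 0 with edgeR on only its own libraries, with edgeR and the length offset, or with limma at either pseudocount. At an unadjusted p below 0.05 these fits gave 12, 14, 13 and 13 members, and DESeq2 called 9 at its adjusted p. The fits that gave 0 members called 9, 89, 179 and 165 of all tested genes at an adjusted p below 0.05. Leaving out 1 library gave 26 to 32 members higher and 5 to 12 lower at day 6, 40 to 43 and 11 to 12 at day 12, 36 to 41 for the difference and 3 to 18 for vehicle time. Over all tested genes the vehicle time calls then ran from 184 to 4183. Where a library was left out, the spread was estimated from all remaining libraries.

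Libraries with the same replicate number did not visibly deviate together: their 18 correlations ran from -0.0457 to 0.0865 (median 4.76e-04), beside -0.131 to 0.0868 for other numbers. With deviations taken from means of 3 libraries, this check cannot exclude that the number pairs them. With a replicate block the counts were 31 higher and 9 lower at day 6, 41 and 11 at day 12, 41 for the difference and 7 for vehicle time. The only member call lost with the block was the difference for EPHA3. At 3 libraries a group, the 6 untested members did not pass the filter on low counts and could not be compared at this depth. Not all were near the level of 3 reads, as SEMA3G reached 1.46 CPM in a treated library of day 12.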
